A study of Mus musculus with 18 samples.

Results

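The livers of mice without hepatocyte Yap were compared with those of control mice after both had been fed ethanol. The comparison is between 6 of the 18 libraries of the series, 3 of ethanol-fed Yap knockout and 3 of ethanol-fed control mice. It covers 11720 of the 23930 genes listed. These were the genes with at least 1 CPM (reads of the gene relative to all reads in that library) in at least 3 of the 18 libraries. All mice carried Yapfl/fl alleles and were injected at 8 weeks of age with an adeno-associated virus (AAV) whose TBG promoter is active in hepatocytes. Knockout mice received Cre (AAV-TBG-Cre, dose 0.5) and control mice received GFP (AAV-TBG-GFP, dose 2), both doses in genome copies on one scale. The control virus thus carried GFP and a higher dose, and the knockout virus carried Cre without GFP. The Yap knockout cannot be told apart from these differences. From 2 weeks after the injection the mice took 5 days of liquid control diet and then 4 weeks of Lieber–DeCarli ethanol diet. They were given ethanol by gavage (5 g/kg, 33% v/v) and killed 9 hours later. The series also holds pair-fed knockout and control mice (control diet, maltose-dextrin gavage) and YAP overexpressing mice (AAV-TBG-YAP-P2A-EGFP, dose 2) on both diets, with 3 libraries in each of the 6 groups. Whether the libraries come from separate animals is not in the labels, so p-values measure the spread between libraries, which may be technical. The labels give no sex. Cells other than hepatocytes, among them Kupffer, endothelial, stellate and bile duct cells, lie outside the reach of the promoter and keep their Yap1.

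YAP, encoded by Yap1, is the transcriptional coactivator at the end of the Hippo pathway. The kinases MST1 and MST2 (Stk4 and Stk3) activate the kinases LATS1 and LATS2. These phosphorylate YAP and its paralog TAZ (Wwtr1), which then leave the nucleus. Unphosphorylated YAP binds the TEAD transcription factors and drives genes of growth, adhesion and matrix. In the liver YAP is high in bile duct cells and low in resting hepatocytes, and it becomes active in hepatocytes after injury. Ethanol is oxidised in hepatocytes to acetaldehyde with the production of reactive oxygen species. Chronic feeding followed by a single large dose is a standard mouse model of alcohol-associated liver injury. Stress of the endoplasmic reticulum (ER) and ATF6 stand in the title of the series. ATF6 is a membrane-bound transcription factor of the ER that is released by unfolded protein.

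The panel reads 1 amplicon per gene. The 6 libraries held 5.18 to 5.76 M reads, and 54.4 to 56.5% of the listed genes had a read in them. Knockout libraries 1 and 2 were the most alike of the 15 pairs among the 6 (root mean square log2 difference 0.327 over 6999 genes, against 0.448 to 0.62 in the other pairs within a group). They still differed beyond sampling noise (chi-square per degree of freedom 14.3) and were kept as separate libraries. Knockout library 3 stood apart from both, at 0.582 and 0.62. All 6 libraries carried Y-linked reads (Ddx3y 69.2 to 128.8 CPM) and little Xist (0 to 2.75 CPM). Alb, the albumin gene of hepatocytes, was the most abundant gene in each. All values below are CPM per library in the order 1, 2 and 3, and means are ± SD (n = 3). Differences are log2 differences ± SE, knockout minus control, from a limma fit to log2(CPM + 1). The fit held all 18 libraries, so each SE and p-value rests on the spread within all 6 groups. That spread includes the pair-fed controls, which were not alike in sex chromosome genes.

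At an adjusted p under 0.05 the comparison called 2 genes, both lower in the knockout, and 0 higher, which is 0.0171% of the genes tested. edgeR's quasi-likelihood test called 3. An unadjusted p under 0.05 was found for 978 genes (8.34%), of which 627 were higher (5.35%) and 351 lower (2.99%) in the knockout. The 2 groups of libraries did not overlap in 965 genes higher (8.23%) and 611 genes lower (5.21%) in the knockout. The median difference over all genes was 0.06, and 57.4% of genes had a difference above 0. These shares are the background for the counts of list members below. No list was tested as a set.

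Yap1 RNA stood at 62.5, 66.6 and 58.1 CPM in control and at 4.76, 3.34 and 5.08 CPM in knockout livers. The groups were far apart, and Yap1 fell by 3.57 ± 0.38 on the log2 scale (adjusted p = 0.000177). The remainder in the knockout is measured in whole liver, where cells that do not express Cre keep the gene. In bulk RNA, fewer cells of a type and less RNA per cell cannot be told apart, and this holds for every marker given below. Whether the amplicon of Yap1 lies in the floxed exon is not given in the sources used here.

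The median of the Hippo list lay near that of all genes, at 0.08 beside 0.06. Of 20 members tested, Yap1 was called. The groups did not overlap in 4 members higher (20%, beside 8.23% of all genes) and 1 lower (5%, beside 5.21%). Wwtr1, which encodes the YAP paralog TAZ, stood at 7.13, 6.76 and 8.68 CPM in control and at 17.9, 10.0 and 10.9 CPM in knockout livers. The groups did not overlap, and the difference of 0.67 ± 0.26 had an unadjusted p = 0.0192 (adjusted p = 0.526). Tead1, a DNA-binding partner of YAP, was at 5.52 to 5.99 CPM in control, at 6.23 and 6.49 CPM in knockout libraries 1 and 2 and at 15.8 CPM in knockout library 3. Tead3 differed by 0.15 ± 0.19, and Tead2 and Tead4 were at 0.356 to 2.43 CPM in the 6 libraries. Lats1 and Lats2, the kinases that inhibit YAP, differed by 0.15 ± 0.15 and 0.19 ± 0.22. Stk4 was at 15.5, 13.3 and 11.8 CPM in control and at 16.7, 19.5 and 18.5 CPM in knockout livers, without overlap (adjusted p = 0.614).

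YAP-TEAD target genes did not pass the test. Of 22 members tested, 0 were called, 16 were lower and 6 higher, with a list median of -0.22. An unadjusted p under 0.05 was found for 3 members, all lower, or 13.6% beside 2.99% of all genes. Thbs1, which encodes the matrix protein thrombospondin 1, was at 8.73, 2.51 and 3.64 CPM in control and 1.83, 0.186 and 1.99 CPM in knockout livers (-1.33 ± 0.45, adjusted p = 0.446). F3, the gene of tissue factor, which starts coagulation, was at 8.20, 7.72 and 6.25 CPM against 3.30, 5.20 and 2.54 CPM (-0.88 ± 0.35). Myof, a membrane repair gene, was at 4.10, 2.70 and 3.12 CPM against 1.28, 0.742 and 2.54 CPM (-0.82 ± 0.39). These 3 targets were low in both groups, and in each the knockout libraries lay below all control libraries. The targets most used as readouts of YAP showed no such separation. Ctgf stood at 11.0, 9.27 and 11.5 CPM in control and 11.9, 10.0 and 8.70 CPM in knockout livers (-0.05 ± 0.42). Cyr61 stood at 4.28, 7.15 and 8.33 CPM against 5.31, 4.82 and 4.53 CPM (-0.33 ± 0.25). Ankrd1 was listed at 0 in the 3 control libraries and at 0.183 to 0.363 CPM in the knockout libraries, below the filter. Both secreted proteins, CTGF and CYR61, are also made by stellate and endothelial cells.

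**Figure D1:**
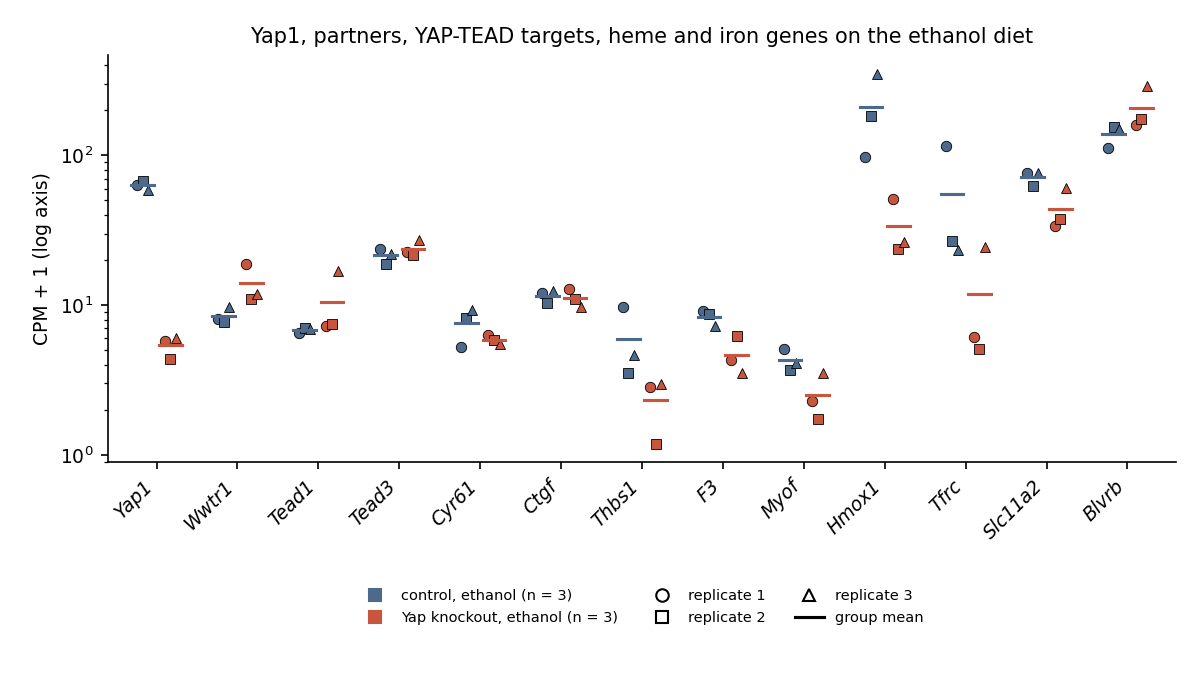
CPM + 1 on a log axis of Yap1, its partners, YAP-TEAD targets and heme and iron genes in the 3 ethanol-fed control (blue) and 3 ethanol-fed knockout (red) libraries; symbols are replicates and bars are group means. Yap1 and Hmox1 show the clearest separation, while Ctgf, Cyr61 and Tead3 overlap.

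Hmox1, which encodes heme oxygenase 1, the enzyme that opens the heme ring and releases iron, carbon monoxide and biliverdin, was the second gene called. It stood at 96.2, 183 and 350 CPM in control and at 50.4, 22.6 and 25.6 CPM in knockout livers. The control libraries differed among themselves by more than the knockout libraries did, but all 3 lay above all 3 knockout libraries. Hmox1 fell by 2.54 ± 0.40 on the log2 scale (adjusted p = 0.0241). The ethanol-fed controls were also the only group with raised Hmox1. It was at 24.5 to 39.8 CPM in pair-fed control, 31.7 to 57.7 CPM in pair-fed knockout, 24.9 to 64.2 CPM in pair-fed overexpression and 41.2 to 52.5 CPM in ethanol-fed overexpression livers. Knockout libraries 1 and 3 lay within the range of these groups and library 2, at 22.6 CPM, just below it. The call held in 12 of 19 alternatives, with differences of -3.0 to -2.07 and adjusted p of 0.00202 to 0.262. It was lost when knockout library 2 (adjusted p = 0.218), control library 2 (0.114) or control library 3 (0.168) was left out. It was also lost in the fit of only the groups compared (0.262), with the barcode range as a factor (0.11), with a replicate block (0.0769) and with no filter (0.0551).

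Around Hmox1, the list of heme breakdown and iron handling genes moved in both directions. Of 21 members tested, an unadjusted p under 0.05 was found for 3 higher (14.3%, beside 5.35% of all genes) and 5 lower (23.8%, beside 2.99%). The list median was -0.19. The transferrin receptor gene Tfrc, through which cells take up iron, was at 114.9, 25.7 and 22.2 CPM in control and 5.13, 4.08 and 23.6 CPM in knockout livers (-2.18 ± 0.68, adjusted p = 0.39). Knockout library 3 lay between controls 2 and 3 for Tfrc, and the other knockout libraries lay below them. Slc11a2, the gene of the iron transporter DMT1, was at 75.0, 61.0 and 75.0 CPM against 32.6, 36.7 and 59.7 CPM (-0.74 ± 0.25). Ireb2, whose product IRP2 binds the iron-responsive elements of Tfrc and Slc11a2 transcripts, was higher in the knockout, at 49.3, 48.3 and 39.7 CPM against 56.8, 68.5 and 73.4 CPM (0.52 ± 0.16). Blvrb, a biliverdin reductase, was at 111.7, 154 and 148 CPM against 160, 175 and 287 CPM (0.55 ± 0.24). Lrp1, the receptor for heme bound to hemopexin, overlapped between the groups (-0.53 ± 0.21). Spic, a transcription factor of iron-recycling macrophages, was low throughout, at 1.60, 0.966 and 1.56 CPM against 0.733, 0.186 and 0.363 CPM (-0.74 ± 0.32). Alas1, the first enzyme of heme synthesis, split the knockout group, at 200 and 151 CPM in libraries 1 and 2 and 1646 CPM in library 3, with the controls at 415 to 552 CPM. None of these 7 genes passed the adjusted threshold.

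Hmox1 is also a target of NRF2, the transcription factor that answers oxidative stress. Of 19 NRF2 targets tested, Hmox1 was called and the list median was -0.12. Nqo1, a quinone reductase and a common readout of NRF2, lay on the other side, at 4.99, 12.6 and 6.42 CPM in control and 13.0, 10.2 and 18.5 CPM in knockout livers (0.78 ± 0.33, adjusted p = 0.56). Osgin1 was at 234, 313 and 548 CPM against 297, 169 and 31.0 CPM (-1.55 ± 0.67). Of the 19 members, 6 were higher and 13 lower.

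Markers of Kupffer cells, the resident macrophages of the liver, were lower in the knockout as a group of values, and 0 of 20 members tested were called. Of the 20, 18 were lower and 2 higher, with a list median of -0.61. An unadjusted p under 0.05 was found for 9 members, all lower, or 45% beside 2.99% of all genes. The groups did not overlap in 9 members lower (45%, beside 5.21% of all genes) and in 0 higher (beside 8.23%). The summed level of the list was 622 to 993 CPM in control and 463 to 514 CPM in knockout livers, without overlap. C1qa was listed at 0 in the 6 libraries, and Trem2 was below the filter.

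Clec4f, a lectin found on Kupffer cells, was at 136, 64.1 and 57.8 CPM in control and 47.6, 40.5 and 41.2 CPM in knockout livers (-0.87 ± 0.26, adjusted p = 0.34). Vsig4, a complement receptor, was at 59.0, 34.6 and 30.7 CPM against 26.2, 23.2 and 24.7 CPM (-0.67 ± 0.24). Cd5l, a secreted scavenger protein, was at 199, 126.1 and 133 CPM against 81.0, 64.0 and 101.5 CPM (-0.88 ± 0.24). In each of these the knockout libraries lay below all controls, and control library 1 was the highest. Cd68, a lysosomal macrophage protein, was at 24.4, 14.9 and 18 CPM against 8.79, 5.94 and 8.52 CPM (-1.19 ± 0.36), and Csf1r, the receptor for the macrophage growth factor, at 30.3, 12.4 and 16.3 CPM against 10.3, 9.28 and 11.4 CPM (-0.78 ± 0.29). Marco, a scavenger receptor, overlapped, at 34.9, 4.25 and 11.6 CPM against 2.75, 5.01 and 2.72 CPM (-1.61 ± 0.47). Timd4, which marks long-lived Kupffer cells, was at 8.20, 5.99 and 3.47 CPM against 2.56, 3.52 and 2.36 CPM (-0.80 ± 0.29). For Timd4 knockout library 2 lay just above control library 3. Cd163, the receptor for hemoglobin bound to haptoglobin, did not follow: it was at 94.2, 30.9 and 13.2 CPM against 40.1, 33.8 and 27.9 CPM (-0.02 ± 0.43). Without control library 1 the list median was -0.41, and it kept its sign in the 12 alternatives computed for it (-0.70 to -0.37).

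Clec4f in the ethanol-fed knockout also lay below the other 15 libraries of the series, which ran from 57.8 to 136 CPM. On the pair-fed diet Clec4f was at 92.8 to 108.8 CPM in control and 96.5 to 131.4 CPM in knockout livers (0.14 ± 0.26). The difference between the effects on both diets was -1.01 ± 0.36 and did not pass (adjusted p = 0.862). The pair-fed and ethanol-fed libraries were not matched on sex chromosome genes, as given at the end of the results. The median of the whole marker list on the pair-fed diet was 0.20.

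**Figure D2:**
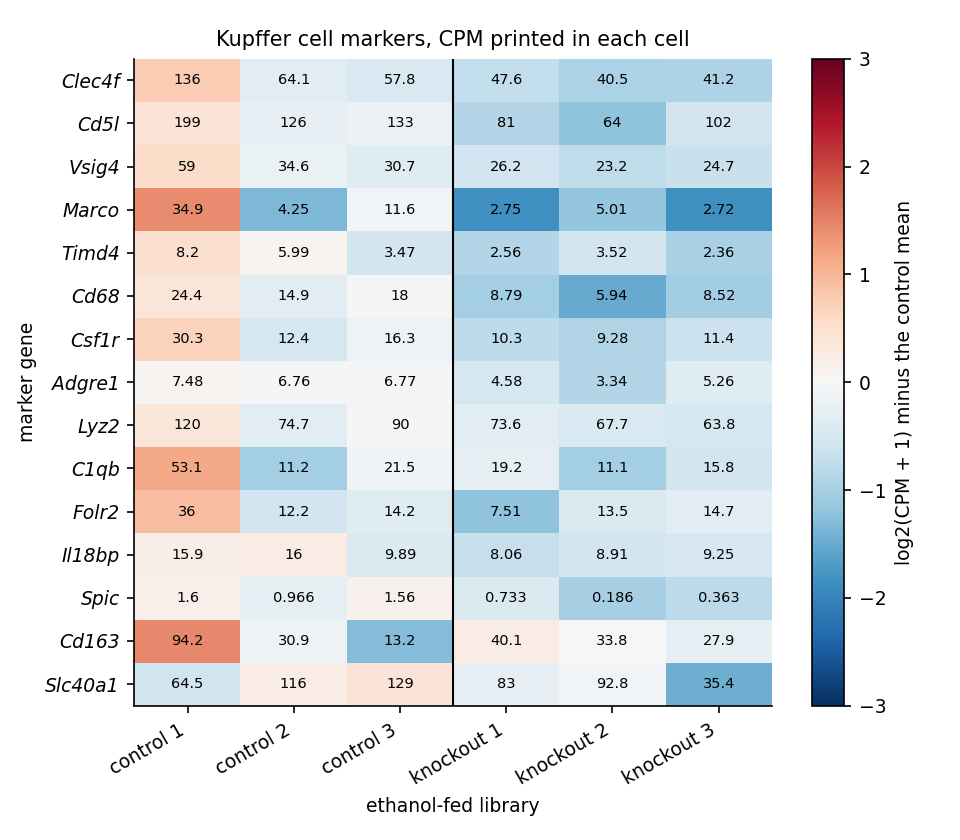
Kupffer cell markers (rows) in the 6 ethanol-fed libraries (columns); the colour gives log2(CPM + 1) minus the mean of the 3 controls and the printed number is CPM. Most rows are blue in the 3 knockout columns, and Cd163 is near the control mean.

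Kupffer cells can express Hmox1 too, and their markers moved in the same direction as Hmox1. Of the controls, library 1 had the highest Clec4f and the lowest Hmox1. The part of Kupffer cells in the Hmox1 difference was not tested.

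A pair of membrane genes of myeloid cells outside the fixed markers were among the genes with the smallest p. Cd300ld was at 15.1, 7.92 and 10.6 CPM in control and 4.21, 3.52 and 2.72 CPM in knockout livers (-1.42 ± 0.32, adjusted p = 0.168). Adgre5, which encodes the leukocyte receptor CD97, was at 28.7, 26.5 and 23.1 CPM against 16.7, 10.4 and 10.3 CPM (-1.03 ± 0.22, adjusted p = 0.168). Markers of other non-parenchymal cells showed no common shift. The list medians were 0.04 for sinusoidal endothelial cells (17 tested), 0.02 for stellate cells and fibrosis genes (16 tested), 0.06 for bile duct and progenitor markers (12 tested), -0.04 for monocytes and recruited macrophages (8 tested), -0.34 for neutrophils (7 tested) and -0.05 for lymphocytes (8 tested). The neutrophil median rested on control library 1, whose members lay at 1.70 relative to the control mean: it was 0.33 without that library and -0.93 without control library 3. Endothelial genes were split: Clec4g was at 83.9, 56.4 and 63.0 CPM in control and 138, 107 and 80.3 CPM in knockout livers (0.65 ± 0.21), while the hyaluronan receptor gene Lyve1 was at 72.3, 129.4 and 124.9 CPM against 50.2, 63.8 and 29.7 CPM (-1.19 ± 0.48). Dnase1l3, a nuclease secreted by endothelial cells and macrophages, was higher by 0.46 ± 0.17. The biliary stem cell marker Prom1 was at 1.43, 8.11 and 1.39 CPM against 0.366, 0.186 and 0.544 CPM (-1.47 ± 0.64). None of these passed the adjusted threshold.

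In the PERK-ATF4 branch, stress of the ER raises the translation of ATF4 and through it the transcription of Ddit3 (CHOP). Genes of this branch were in part much higher in 2 of the 3 knockout libraries. Of 23 members tested, 0 were called in the comparison of 3 against 3. An unadjusted p under 0.05 was found for 8 members higher (34.8%, beside 5.35% of all genes) and 1 lower (4.35%, beside 2.99%). The list median was 0.72. The median of the members relative to the control mean was 0.66 and 1.05 in knockout libraries 1 and 2 and -0.23 in library 3, while the controls lay at -0.23, 0.20 and 0.10. By this median knockout library 3 lay level with the lowest control. By the summed level of the list it did not. That sum was 1440 to 2260 CPM in control and 3370, 3070 and 2700 CPM in knockout livers, without overlap.

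Ddit3, the gene of the transcription factor CHOP, stood at 9.80, 11.4 and 11.5 CPM in control livers. In the knockout it was at 125.6 and 153 CPM in libraries 1 and 2 and at 6.71 CPM in library 3, below every control (2.17 ± 0.70, adjusted p = 0.405). The pseudokinase gene Trib3, a target of ATF4 and CHOP that feeds back on both, was at 6.24, 13.3 and 7.81 CPM against 98.9, 122.1 and 9.43 CPM (2.38 ± 0.60). Atf3, a stress transcription factor, was at 11.2, 18.2 and 16 CPM against 141, 193 and 23.8 CPM (2.48 ± 0.76). Library 3 lay above the controls for Atf3 and among them for Trib3. Slc3a2, a subunit of amino acid transporters, was at 33.1, 50 and 45.8 CPM against 118.5, 103.9 and 51.1 CPM (1.00 ± 0.25, adjusted p = 0.266). The serine synthesis gene Psat1 was at 2.14, 5.99 and 5.03 CPM against 24.0, 26.9 and 2.72 CPM (1.43 ± 0.58), and the mitochondrial folate gene Mthfd2 at 3.92, 4.25 and 4.34 CPM against 25.8, 31.7 and 0.907 CPM (1.2 ± 0.74). The asparagine synthetase gene Asns had the same order, at 6.77, 8.69 and 2.26 CPM against 18.9, 20.8 and 2.36 CPM. Ppp1r15a, whose product GADD34 reverses the block of translation, was at 18, 12.6 and 14.9 CPM against 29.9, 32.1 and 18.1 CPM (0.75 ± 0.28). Nupr1 was at 1.60, 1.93 and 1.91 CPM against 5.86, 4.45 and 1.99 CPM (0.78 ± 0.34). Ddit4, an inhibitor of mTORC1, ran the other way within the knockout, at 49.8, 76.3 and 250 CPM, with the controls at 65.6, 35 and 42.0 CPM (1.09 ± 0.48).

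Not every member took part. Chac1, whose enzyme degrades glutathione, was lower in the 3 knockout libraries, at 7.66, 6.57 and 11.5 CPM in control and 1.47, 2.78 and 1.09 CPM in knockout livers (-1.80 ± 0.69, unadjusted p = 0.017). Atf4 itself was at 169, 312 and 300.5 CPM against 335, 314 and 142 CPM, and Eif2ak3, the gene of PERK, at 17.3, 30.5 and 34.5 CPM against 32.8, 24.1 and 15.4 CPM. Both overlapped between the groups. Fgf21, a hormone that ATF4 can induce, was at 40.8, 50 and 69.9 CPM against 49.6, 115.2 and 4.35 CPM.

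**Figure D3:**
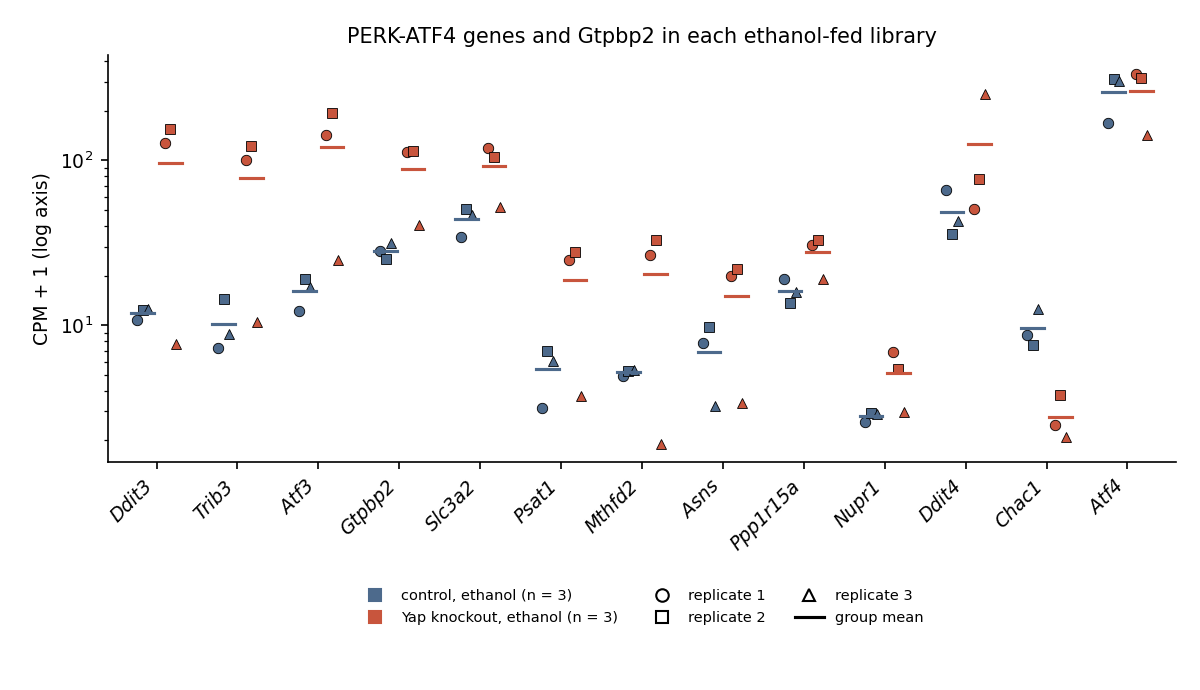
CPM + 1 on a log axis of 12 PERK-ATF4 genes and Gtpbp2 in the ethanol-fed control (blue) and knockout (red) libraries; symbols are replicates and bars are group means. Circles and squares of the knockout lie well above the controls for Ddit3, Trib3, Atf3, Psat1 and Mthfd2, and the triangle of library 3 lies near or below them; Ddit4 and Chac1 depart from that order.

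Leaving knockout library 3 out changed the count of calls from 2 to 36, of which 32 were higher and 4 lower (0.307% of genes tested). Of the 32 higher genes (0.273% of genes tested), 5 belong to the PERK-ATF4 list (of 23 tested). In 22 of the 32 higher genes, knockout library 3 lay at or below the highest control. The 32 genes passed only with library 3 left out, so its low place in them is in part fixed by that choice. Ddit3 then differed by 3.56 ± 0.31 (adjusted p = 1.49e-05), Trib3 by 3.51 ± 0.34 (adjusted p = 2.96e-05) and Gtpbp2 by 2.01 ± 0.22 (adjusted p = 0.000157). This fit kept knockout libraries 1 and 2, the most alike pair. Its p-values thus leave out the spread that library 3 adds, and they do not describe the knockout group of 3. Each of the 6 libraries was left out in turn. The other 5 omissions gave 1 to 9 calls. Gtpbp2, a GTP-binding protein gene that is not on the list, was at 27.1, 24.1 and 30.4 CPM in control and 111.5, 113.2 and 39.3 CPM in knockout livers (1.52 ± 0.30, adjusted p = 0.109), and it was the third gene called by edgeR. Other genes called without library 3 had the same order. Arhgef2, which encodes a guanine nucleotide exchange factor, was at 5.17, 2.90 and 1.91 CPM against 27.8, 31.5 and 5.44 CPM (2.14 ± 0.48, adjusted p = 0.168 with the 3 libraries). Cyb5r1 was at 9.80, 7.53 and 5.03 CPM against 32.4, 49.2 and 11.4 CPM (1.74 ± 0.39), and Fibin at 0, 3.28 and 1.39 CPM against 16.1, 28 and 1.99 CPM (2.39 ± 0.61). Ctsl, the gene of the lysosomal protease cathepsin L, was at 1486, 1703 and 2065 CPM against 4273, 3236 and 1664 CPM.

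Library 3 also held the highest values of a few other genes, chosen after their values were seen. Tat, which degrades tyrosine and answers glucocorticoids, was at 3381, 4849 and 12769 CPM in the knockout and 3235, 2340 and 1887 CPM in control livers (1.29 ± 0.41, adjusted p = 0.405). Cebpb was at 141, 99.5 and 548 CPM against 123.6, 160 and 156 CPM. Alas1 belongs here too. The labels give a barcode number for each library, and ranges were cut from these numbers here. The labels do not name such ranges or say what they stand for. Library 3 carried a barcode from the range that holds replicate 3 of each group, while libraries 1 and 2 carried barcodes from 2 other ranges. The range of knockout library 1 held no ethanol-fed control, so that library has no control within its range. Within the range of library 3, Ddit3 was at 6.71 CPM in the knockout and 11.5 CPM in control library 3. Within that of knockout library 2 it was at 153 CPM, and at 9.80 and 11.4 CPM in control libraries 1 and 2. With the barcode range as a factor, Ddit3 differed by 2.30 (adjusted p = 0.424).

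The promoters of the PERK-ATF4 genes were searched for the letters TGATGNAA on both strands, the core of the C/EBP-ATF composite element that ATF4 dimers bind. The windows were those of RefSeq (GRCm38.p6) around each gene's start, all of the same length. Of 22 list members with a window, 7 held the letters (31.8%), beside 248 of 8949 tested genes with a window (2.77%). Of all genes with a window, 4.51% held them. The list was made of genes of the ATF4 branch, so a share above the background can follow from that choice alone. A match is a description of the sequence, not a bound site. The 7 stretches are shown because they carry that element in members that behaved differently here: Atf3, Trib3, Asns and Nupr1 were high in knockout libraries 1 and 2, Chac1 was low in all 3, and Fgf21 and Vldlr overlapped between the groups. They are written 5′ to 3′ on the strand of the gene, with the matched letters (or their reverse complement) in capitals.
Atf3, chr1:191183426-191183493, minus strand: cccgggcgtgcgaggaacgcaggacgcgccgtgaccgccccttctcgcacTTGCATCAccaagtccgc
Trib3, chr2:152344031-152344096, minus strand: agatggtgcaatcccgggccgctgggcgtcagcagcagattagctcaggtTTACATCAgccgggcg
Asns, chr6:7693215-7693282, minus strand: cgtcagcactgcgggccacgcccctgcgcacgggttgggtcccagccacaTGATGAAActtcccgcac
Nupr1, chr7:126625563-126625630, minus strand: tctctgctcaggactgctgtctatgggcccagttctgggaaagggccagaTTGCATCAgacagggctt
Chac1, chr2:119350999-119351066, plus strand: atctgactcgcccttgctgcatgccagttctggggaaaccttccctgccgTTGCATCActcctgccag
Fgf21, chr7:45615612-45615679, minus strand: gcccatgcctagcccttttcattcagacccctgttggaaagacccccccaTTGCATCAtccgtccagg
Vldlr, chr19:27216770-27216837, plus strand: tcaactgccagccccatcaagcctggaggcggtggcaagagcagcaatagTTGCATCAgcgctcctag

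The first base of the match lay at -110 from the start in Atf3 and Nupr1, at -23 in Asns, at 15 in Trib3, and at -139 to -200 in Fgf21, Chac1 and Vldlr. The match in Atf3 and that in Chac1 have the same letters, while the RNA of Atf3 was higher and that of Chac1 lower in knockout libraries 1 and 2.

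The ATF6 and XBP1 branches of the unfolded protein response lay near the median of all genes. Atf6, named in the title of the series, was at 97.3, 124.2 and 142 CPM in control and 195, 175 and 170 CPM in knockout livers. The groups did not overlap, and the difference of 0.58 ± 0.18 had an unadjusted p = 0.00368 (adjusted p = 0.375). The other 15 libraries of the series ran from 74.4 to 160 CPM, below the 3 ethanol-fed knockout libraries. On the pair-fed diet the difference was 0.01 ± 0.18, and the difference between diets was 0.57 ± 0.25 (adjusted p = 0.864). ATF6 is activated by cleavage of the protein, which RNA does not show. Of 20 ATF6 targets and ER chaperones tested, an unadjusted p under 0.05 was found for Atf6 alone (5%, beside 5.35% of all genes higher). The list median was 0.12. Hspa5, the gene of the chaperone BiP, was at 673, 722 and 605 CPM against 863, 842 and 552 CPM (0.15 ± 0.31). Library 3 was the lowest of the knockout for Hspa5 but the highest for the list. The list members' median relative to the control mean was 0.1, 0.0 and 0.3 in knockout libraries 1, 2 and 3. Hyou1, which encodes an ER partner of BiP, was at 61.6, 69.1 and 70.6 CPM against 100.9, 79.8 and 146 CPM (0.65 ± 0.39), without overlap. Herpud1, Pdia4, Hsp90b1 and Calr overlapped between the groups. Xbp1 was at 485, 532 and 446 CPM against 573, 558 and 446 CPM (0.10 ± 0.15), and of 18 members of the XBP1 and ER-associated degradation list 0 had an unadjusted p under 0.05 (median 0.10).

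Among genes that p53 can induce, 13 of 18 tested were higher and 5 lower. An unadjusted p under 0.05 was found for 3, all higher (16.7%, beside 5.35%), with a list median of 0.36 and 0 called. The summed level of the list was 613 to 877 CPM in control and 1020 to 1300 CPM in knockout livers. Cdkn1a, the gene of the cell cycle inhibitor p21, was at 187, 277 and 46.2 CPM against 341, 375 and 349 CPM (1.40 ± 0.57, adjusted p = 0.537). Trp53inp1 was at 75.5, 98.1 and 119.7 CPM against 166, 155 and 380 CPM (1.15 ± 0.41). Gadd45a, which ATF4 can also induce, followed the order of Ddit3, at 20.7, 35.1 and 25.9 CPM against 80.4, 183 and 23.9 CPM (1.38 ± 0.53). Cdkn1a and Trp53inp1 did not overlap between the groups, and for both of them library 3 stood with the other knockout libraries or above them.

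**Figure D4:**
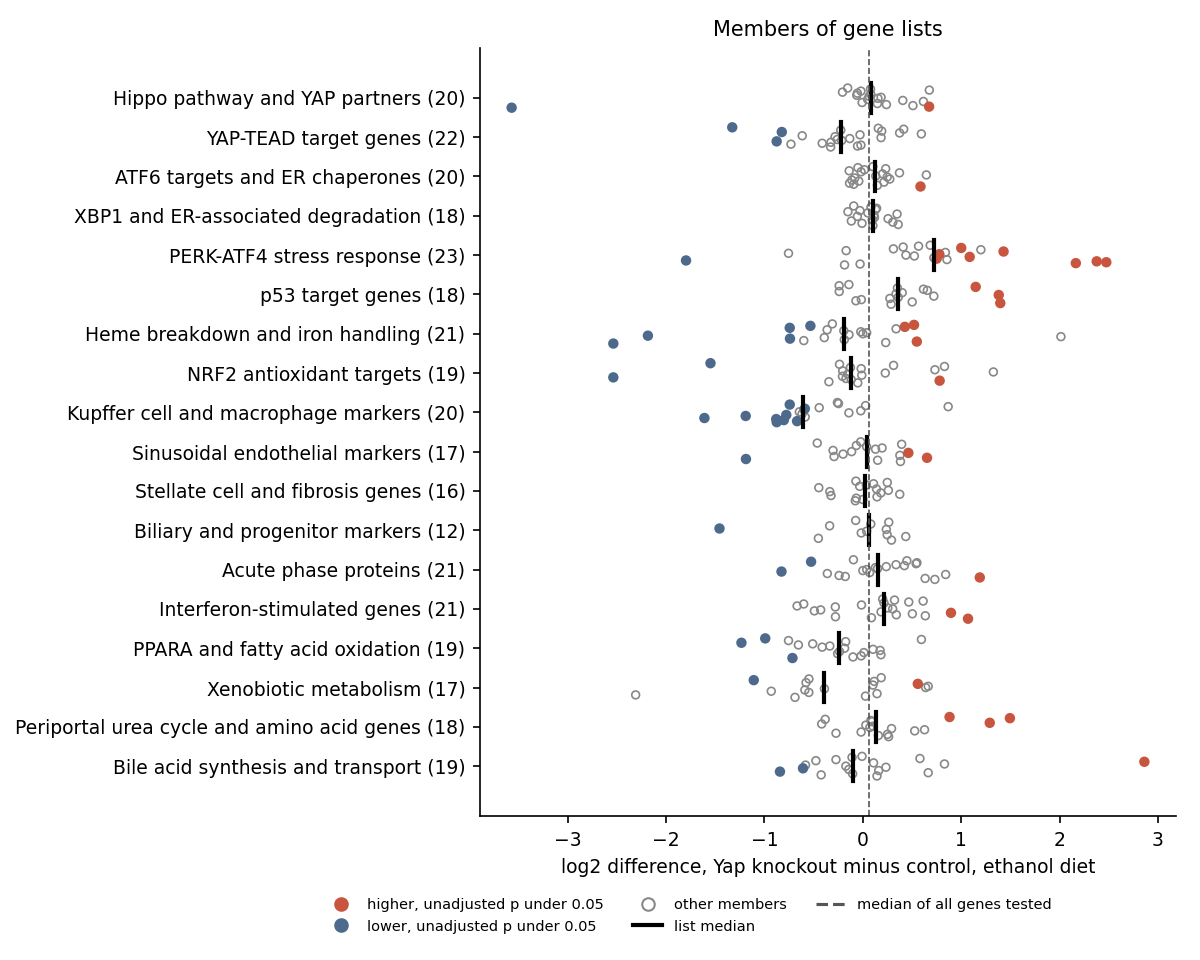
Log2 differences (knockout minus control, ethanol diet) of the members tested of 18 gene lists, with the number tested in brackets; filled points have an unadjusted p under 0.05, black bars are list medians and the dashed line is the median of all genes (0.06). Of the 18 medians, those of the PERK-ATF4 (0.72) and Kupffer cell (-0.61) lists lie farthest from that line.

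Among genes of the urea cycle and amino acid breakdown, which hepatocytes near the portal vein express, 6 of 18 members were higher without overlap (33.3%, beside 8.23%) and 0 lower, with a list median of 0.13. Slc25a15, the ornithine carrier of the mitochondrion, was at 638, 524 and 607 CPM in control and 1099, 981 and 1181 CPM in knockout livers (0.88 ± 0.29, adjusted p = 0.411). Etnppl, which breaks down phosphoethanolamine, was at 38.8, 10.8 and 22.9 CPM against 48.2, 66.8 and 74.7 CPM (1.5 ± 0.43). Tat, given above, is the third with an unadjusted p under 0.05. Csad, which makes hypotaurine on the way to taurine, was at 107.6, 34 and 59.5 CPM against 226, 231 and 519 CPM (2.30 ± 0.60, adjusted p = 0.291).

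Of 19 genes of PPARA and fatty acid oxidation, 3 had an unadjusted p under 0.05, all lower (15.8%, beside 2.99%), and the list median was -0.24. The library medians were -0.22, 0.23 and 0.09 in control and -0.18, -0.22 and -0.14 in knockout livers. Control library 1 was thus level with the knockout. Ppara, the nuclear receptor that senses fatty acids, was at 392, 312 and 467 CPM in control and 299, 228 and 189 CPM in knockout livers (-0.71 ± 0.24, adjusted p = 0.446). Its targets Vnn1, at 60, 123.8 and 110 CPM against 44.0, 46.8 and 49.1 CPM (-0.99 ± 0.40), and Acot3 (-1.23 ± 0.46) were lower too. Of the lipid droplet list (19 tested, median 0.05), Cidec, a droplet protein, was at 49.7, 66.0 and 30.2 CPM against 145, 166 and 90.7 CPM (1.47 ± 0.58), and the fatty acid carrier gene Fabp4 at 46.0, 27.4 and 29.1 CPM against 10.4, 21.3 and 13.2 CPM (-1.16 ± 0.45). Fatty acid synthesis (20 tested, median -0.08) and cholesterol synthesis (20 tested, median 0.03) lay near the middle.

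Cyp2e1, the ethanol-oxidising cytochrome, was at 5147, 5224 and 9183 CPM in control and 6747, 4417 and 5795 CPM in knockout livers, with overlap (-0.17 ± 0.39).

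Among bile acid genes (19 tested, median -0.10), the muricholic acid enzyme gene Cyp2c70 was at 615, 1422 and 1456 CPM in control and 768, 466 and 618 CPM in knockout livers (-0.84 ± 0.28), and the uptake transporter gene Slc10a1 at 1477, 1028 and 1026 CPM against 863, 877 and 582 CPM (-0.61 ± 0.26). Of 17 genes of xenobiotic metabolism (median -0.39), Nr1i2, which encodes the receptor PXR, was higher (0.56 ± 0.20) and the estrogen sulfotransferase gene Sult1e1 lower (-1.11 ± 0.48). The controls were spread in this list, with library medians of -1.05, 0.39 and 0.48, and the list median was -0.86, -0.11 and -0.17 without control library 1, 2 and 3. Acute phase proteins (21 tested, median 0.15) were split. Crp was at 385, 484 and 644 CPM against 287, 258 and 289 CPM (-0.83 ± 0.18, adjusted p = 0.168), Cp (ceruloplasmin, the copper-carrying ferroxidase) was lower by -0.52 ± 0.22, and Saa3 was at 3.21, 1.16 and 3.82 CPM against 5.13, 11.1 and 5.98 CPM (1.19 ± 0.45). Of 21 interferon-stimulated genes (median 0.22), Ifit1 (1.07 ± 0.45) and Mx2 (0.90 ± 0.32) had an unadjusted p under 0.05 (9.52%, beside 5.35% of all genes higher). None of the genes of these metabolic and acute phase lists passed the adjusted threshold.

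Several of the largest differences were in genes that male and female mouse livers express at different levels through the pattern of growth hormone. Lists of these were drawn up after the values had been seen and are given as a description. Of 12 male-biased genes 10 were higher (median 0.89), and of 24 female-biased genes 18 were lower (median -0.82) in the knockout, although all 6 libraries carried Y-linked reads. Elovl3, a fatty acid elongase gene of male liver, was at 10.5, 9.85 and 14.9 CPM in control and 95.1, 121.3 and 60.9 CPM in knockout livers (2.84 ± 0.90, adjusted p = 0.405). Mup20, which encodes the male urinary pheromone darcin, was at 767, 142 and 437 CPM against 821, 2542 and 1065 CPM (1.85 ± 0.76). The organic anion transporter gene Slco1a1 was at 57.9, 0.386 and 7.11 CPM against 59.0, 75.7 and 54.4 CPM (2.86 ± 1.22), so that control library 1 was at the level of the knockout.

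On the female side, Cux2, a repressor of male genes, was at 25.5, 35.5 and 14.1 CPM in control and 12.1, 6.31 and 6.53 CPM in knockout livers (-1.45 ± 0.50). Fmo2 was at 86.8, 35.1 and 38 CPM against 19.4, 20.4 and 11.8 CPM (-1.49 ± 0.34, adjusted p = 0.168). The transporter genes Slc22a26, at 16, 47.5 and 2.95 CPM against 2.02, 1.30 and 1.99 CPM (-2.43 ± 1.03), and Slc22a27, at 8.91, 43.1 and 8.33 CPM against 2.56, 2.97 and 2.90 CPM (-2.07 ± 0.60), were lower in each knockout library. Cyp17a1 (-1.47 ± 0.49) and Abcd2 (-1.34 ± 0.38) were lower as well, while Cyp3a44 was at 350, 396 and 543 CPM against 405, 514 and 350 CPM. The groups overlapped in Cyp3a44. Of the 24 female-biased genes 6 were higher, and 3 of these did not overlap (12.5%, beside 8.23%). They were Sult3a1, at 0.356, 0 and 0.174 CPM against 5.68, 2.41 and 1.99 CPM, Tox, at 11.0, 12.6 and 16.1 CPM against 19.2, 18 and 22.8 CPM, and Trim24, at 69.1, 82.7 and 87.8 CPM against 138, 117.8 and 92.1 CPM.

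The log2 difference farthest from 0 among the genes tested was that of Vps13b, a gene of vesicle transport at the Golgi. It was at 23.5, 53.5 and 46.8 CPM in control and at 0, 0.186 and 0 CPM in the knockout, where 0.186 CPM is a single read. The fitted difference was -5.24 ± 1.02 (adjusted p = 0.109), and it depends on the pseudocount, at -8.10 with 0.1 and -2.30 with 10. Vps13b was called in 4 of 19 alternatives: with array weights (adjusted p = 0.00333), with only the groups compared (0.000119), with the 9 ethanol-fed libraries (7.33e-07) and without the pair-fed control and knockout groups (3.69e-08). In the other alternatives the adjusted p was up to 0.359. Over the whole series, Vps13b was at 0 to 0.574 CPM in 5 libraries: the 3 ethanol-fed knockout libraries, pair-fed knockout library 1 and pair-fed control library 3. A further 4 libraries had 21.0 to 24.4 CPM, and 9 had 44.7 to 61.6 CPM. Near absence of reads was thus also seen in a pair-fed control library, and pair-fed knockout libraries 2 and 3 had 21.2 and 24.4 CPM.

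Other genes with small p-values lie next to Vps13b on chromosome 15, by the order of RefSeq genes in GRCm38.p6. Of 11720 genes, 11606 could be placed on a chromosome. Of the 30 genes tested from Dap to Azin1, 8 had an unadjusted p under 0.05 (26.7%, beside 8.34% of all genes), 4 higher and 4 lower. The stretch was chosen after the values were seen. Dap, which encodes a regulator of autophagy, was at 262, 542 and 407 CPM in control and 97.3, 90.2 and 115.9 CPM in knockout livers (-1.93 ± 0.39, adjusted p = 0.122). It was also low where Vps13b was, at 84.3 CPM in pair-fed control library 3 and 135 CPM in pair-fed knockout library 1. Fam173b was at 7.48, 18.9 and 10.2 CPM against 4.95, 3.15 and 2.18 CPM (-1.53 ± 0.39). Azin1, which raises polyamine synthesis by binding antizyme, ran the other way, at 157, 113.9 and 68.9 CPM against 197, 235 and 280 CPM (1.12 ± 0.25, adjusted p = 0.168), as did the chaperonin gene Cct5 (0.44 ± 0.14) and Laptm4b (0.68 ± 0.19). Snhg18 (-0.79 ± 0.36) and Tspyl5 (0.80 ± 0.35) were near 1 CPM or below in at least 1 group. What the libraries without Vps13b reads share was not tested.

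**Figure D5:**
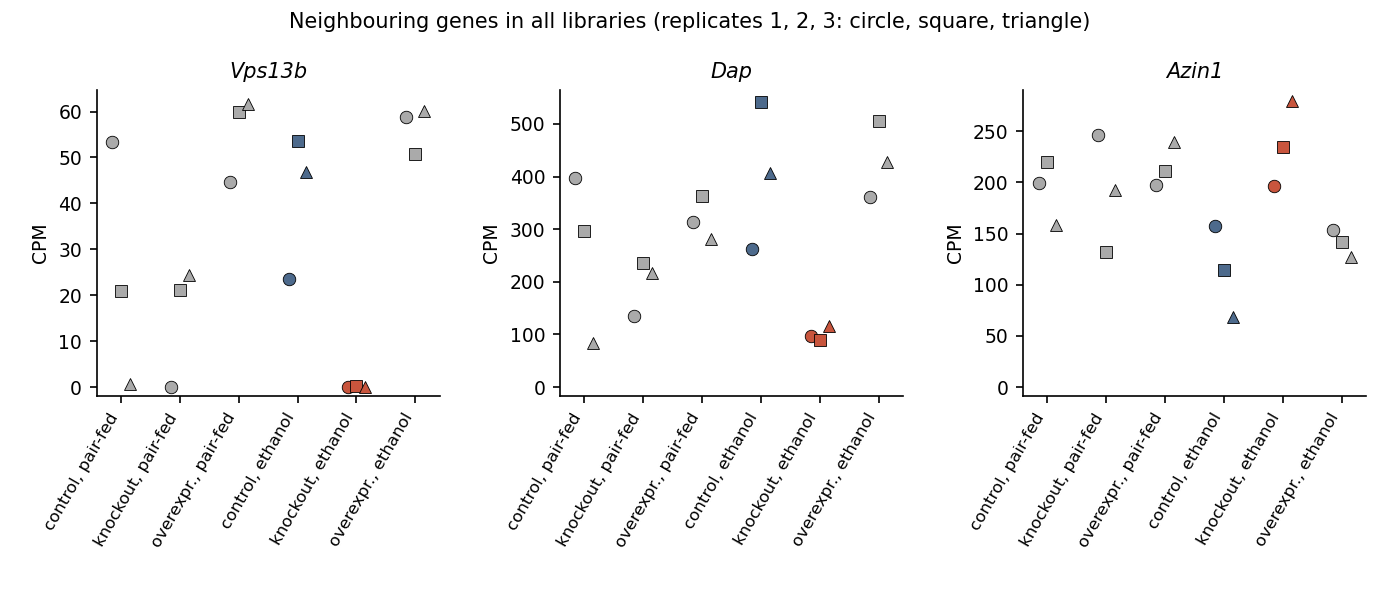
CPM of Vps13b, Dap and Azin1 in all 18 libraries by group, with circle, square and triangle for replicates 1, 2 and 3; ethanol-fed control is blue and ethanol-fed knockout red. Vps13b is at or near 0 in 5 libraries and near 20 or above 40 in the others, and Dap is low in the same 5.

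Among the remaining genes with the smallest p-values, several separated the groups tightly without passing. Rassf3, which encodes a Ras association domain protein related to the Hippo scaffolds, was at 51.7, 52.1 and 74.6 CPM in control and 168, 145 and 122.9 CPM in knockout livers (1.28 ± 0.22, adjusted p = 0.0576). It was called in 6 of 19 alternatives (adjusted p of 0.00174 to 0.359), among them the fit without knockout library 3. Rora, a nuclear receptor of clock and lipid genes, was at 48.8, 49.8 and 54.0 CPM against 100.6, 126.2 and 79.1 CPM (0.96 ± 0.19, adjusted p = 0.109). Cdk17 was at 33.5, 28.8 and 27.9 CPM against 52.9, 53.6 and 54.9 CPM (0.82 ± 0.16, adjusted p = 0.109). These 3 genes were higher in each knockout library than in any control, library 3 included.

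Sgk1, a kinase that glucocorticoids and insulin induce, was at 15.3, 22.8 and 23.9 CPM in control and 49.6, 93.5 and 40.8 CPM in knockout livers (1.46 ± 0.30, adjusted p = 0.145). Aim1 was at 23.0, 32.6 and 39.2 CPM against 82.6, 85 and 61.5 CPM (1.26 ± 0.27). Mtif2, a factor that starts mitochondrial translation, was at 4.81, 5.6 and 4.86 CPM against 10.8, 12.1 and 11.1 CPM (1.02 ± 0.23). Gnpnat1 (0.86 ± 0.20) and Acbd6 (0.76 ± 0.18) were higher in each knockout library as well, and Mme, the gene of the protease neprilysin, was at 11.2, 12.7 and 0.868 CPM against 25.3, 20.2 and 39.3 CPM (2.05 ± 0.53). Cend1 was at 3.56, 0.579 and 0.694 CPM against 3.85, 4.45 and 11.1 CPM (1.57 ± 0.38).

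On the lower side, Apol9b was at 16.9, 28.8 and 43.9 CPM in control and 9.52, 8.35 and 9.79 CPM in knockout livers (-1.5 ± 0.28, adjusted p = 0.109). Wfdc21 was at 932, 1056 and 1180 CPM against 567, 546 and 577 CPM (-0.90 ± 0.20, adjusted p = 0.168), and Slc46a3, a lysosomal carrier gene, at 18, 16.6 and 29.1 CPM against 8.97, 9.28 and 9.61 CPM (-1.07 ± 0.23). For these 3 genes the knockout libraries lay close together and below all controls. Slc26a10 was lower by -1.54 ± 0.35. Raet1e, a ligand of the natural killer receptor NKG2D, was at 1.25, 14.3 and 12.8 CPM against 0.733, 1.11 and 0.907 CPM (-2.03 ± 0.74).

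The same knockout was compared with its control on the pair-fed diet. Yap1 alone was called, lower by -2.74 (0.00853% of genes tested), and 367 genes (3.13%) had an unadjusted p under 0.05. The pair-fed groups were not matched on sex chromosome genes: the 3 knockout libraries and control libraries 2 and 3 carried Xist (348 to 423 CPM), and control library 1 did not (0.35 CPM). The ethanol-fed control and knockout libraries carried little Xist, so the difference between the diets is not matched on it either. The difference of the knockout effect between the diets was called in 0 genes by limma and in 0 by edgeR, with 666 (5.68%) and 703 genes at an unadjusted p under 0.05. The smallest p of that contrast among the genes named here was that of Hmox1 (-2.90 ± 0.56, unadjusted p = 5.65e-05, adjusted p = 0.662), which differed by 0.36 ± 0.40 on the pair-fed diet. When ethanol-fed control library 1 was left out, Hmox1 was called in that contrast, and without ethanol-fed knockout library 3 Ddit3, Trib3 and Gtpbp2 were called. In the fit of all 18 libraries no gene was shown to differ in its knockout effect between the diets.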

How the data were processed

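RNA of mouse liver was read with the Ion AmpliSeq mouse transcriptome panel, 1 amplicon per gene. The authors deposited CPM per gene and library, and files per library with log2(RPM + 1) values, made by the ampliSeqRNA plugin per the file headers. For aligner and genome build, the entry is: not given in the sources used here. Both deposits held the same values for 23930 genes. Libraries were grouped by title.

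The 11720 genes with CPM of at least 1 in 3 of 18 libraries were tested on log2(CPM + 1), a pseudocount of 1, which understates the change of low genes. limma 3.58.1 (R 4.3.3; lmFit, eBayes with trend) fitted 6 group means to 18 libraries, two-sided, with Benjamini-Hochberg adjustment and a threshold of 0.05. From the deposited CPM, 100.0% of values came out as whole reads within 0.02 reads (largest distance 0.0031), and edgeR 4.0.16 on these counts called 3 genes. In data simulated for the ethanol comparison over 11286 genes, 97% of 4-fold and 35% of 2-fold changes were recovered, with 8 false calls. A count of 0 allows up to 0.5205 to 0.5794 CPM in the 6 libraries (3 reads, counting error only). An exact permutation test of 3 against 3 cannot go below p = 0.1 and was not used.

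Named genes were those called, the 12 with the smallest p and the 8 with the largest difference in each direction among genes without overlap and at 5 CPM or more, up to 4 members per list, and a fixed set of YAP, stress and marker genes. A few genes that meet this rule are not reported here. The lists and genes were chosen with earlier results of these data known, and a few genes and the sex-biased lists were added after their values were seen. Alternatives changed the pseudocount, filter, scaling, weights, samples in the fit, a replicate block, the barcode range as a factor and the tool, and left out each library. Same-numbered control and knockout libraries did not deviate together (correlations of -0.03, -0.03 and 0.1), so numbers were not taken as pairs.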

Additional observations from a re-analysis of the deposited data

How the results depend on the processing

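Yap1 was called in 19 of 19 alternatives of the ethanol comparison (-3.87 to -2.33) and Hmox1 in 12. The 2 calls became 78 higher and 27 lower with array weights, 5 with the 9 ethanol-fed libraries alone, 5 without the pair-fed control and knockout groups, 4 with only the groups compared and 1 with the barcode range as a factor. Leaving out 1 library gave 1 to 36 calls: 36 without knockout library 3, 9 without control library 1, and 1 (Yap1) without knockout library 2 or control library 2 or 3. A replicate block gave 1 call, Yap1, and lost Hmox1 (adjusted p = 0.0769); the numbers do not pair the libraries. With no filter there were 2 calls, Yap1 and Slco4a1. The difference between diets went from 0 calls to 0 to 3 with a library left out, and stayed at 0 with the replicate block. The pair-fed comparison went from 1 call to 2 with no filter, 0 with a pseudocount of 10 or only the groups compared, and 0 to 2 with a library left out. Of 2033 differences of named genes under an alternative, 1950 kept direction and side of the threshold, 66 passed it newly, 7 lost it and 10 changed sign. The sign changed for Ctgf with array weights (0.09) and with a library left out (range -0.16 to 0.05), for Alas1 with edgeR (0.51) and with a library left out (range -1.44 to 0.28), for Cd163 with array weights (0.25) and with a library left out (range -0.67 to 0.70), and for Cyp2e1 with a library left out (range -0.31 to 0.10). The cause was not tested. TMM and quantile scaling moved the median of all genes by at most 0.05. With 3 libraries a group, changes of 2-fold were mostly missed in simulated data.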
